A study of Mus musculus with 39 samples.

Results

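Iron storage and transport is described here through 8 genes, matched by symbol among the 43430 genes of the counts table, each to 1 row. They are Fth1 and Ftl1, the heavy and light chains of ferritin; Slc40a1, which encodes the iron exporter ferroportin; Tfrc, the transferrin receptor; Slc11a1 and Slc11a2, the divalent metal transporters also called NRAMP1 and DMT1; and Aco1 and Ireb2, which encode the iron regulatory proteins IRP1 and IRP2. All 8 were read in 39 RNA-seq libraries from C57BL/6J mice in 8 groups. The question named in the study's title is how ISRIB, a small molecule that opposes the integrated stress response by acting on the translation factor eIF2B, bears on macrophages in lung fibrosis of aged animals.

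The monocytes were sorted from the lungs of naive mice, with 5 libraries from each of young saline, young ISRIB, old saline and old ISRIB mice. The macrophages, sorted as Siglec F-low alveolar macrophages, came from animals whose lungs had been injured with bleomycin, the usual way to model lung fibrosis, with 5 libraries each from young saline, old saline and old ISRIB mice and 4 from young ISRIB mice. The series text gives bleomycin mice daily intraperitoneal ISRIB or vehicle from day 7 and collection on day 21, and no dosing times for the naive mice. Young mice were 8 to 12 weeks old in the sample labels and 3 to 5 months in the series text; old mice were over 18 months in the labels and 18 to 24 months in the series text. The labels name no transgene or deletion. No group paired macrophages with naive lung or monocytes with bleomycin, so that cell type and injury cannot be told apart. The labels do not say whether libraries of a group came from separate mice, so p-values measure the spread between these libraries, which may be technical.

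Libraries held 4595331 to 16056708 counts assigned to genes, with a median of 8628240. Levels are counts per 1000000 counts of a library (CPM), scaled by the trimmed mean of M-values (TMM), and ± is the SD over libraries. The labelled cell types carried their defining markers. The summed level of 7 macrophage identity genes was 6138 to 8451 CPM in macrophages and 1414 to 1920 CPM in monocytes, whereas 6 classical monocyte genes summed to 108 to 543 CPM in macrophages and 4627 to 10530 CPM in monocytes. Siglecf itself was at 47.2 to 156 CPM in macrophages and at most 1.56 CPM in monocytes. The 7 matched genes of red blood cells and their precursors summed to at most 4.83 CPM in any library.

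Cells take up transferrin-bound iron through the transferrin receptor and move it out of endosomes through metal transporters such as DMT1. Iron that is not used is kept inside ferritin shells built from heavy and light chains, and surplus leaves through ferroportin, the only known iron exporter of mammals. In lung and other tissues macrophages recover iron from engulfed cells, and functional NRAMP1 pumps divalent metals out of the phagosome. Counts of Slc11a1 message do not say whether its protein works in these mice. When iron is scarce, the iron regulatory proteins bind hairpins called iron-responsive elements in the untranslated regions of these messages: binding near the start blocks translation of ferritin and ferroportin, and binding behind the coding region keeps the transferrin receptor message from decay. Much of iron regulation therefore acts on translation and on protein decay, which RNA-seq does not read.

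The elements were found in 5 of the 8 genes and are shown because they are what links these genes in one circuit. A search of annotated untranslated regions (GENCODE M21 on GRCm38, the same assembly as mm10) looked on the coding strand only for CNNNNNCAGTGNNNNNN, with the 5-base arms on both sides of the loop able to pair, G-T pairs allowed and at most 1 mismatch. Each line gives the 29 bases around the element, 5′ to 3′ on the gene's strand, with the 6-base loop in capitals.
Fth1, 5′ UTR, chr19:9982732-9982760, plus strand: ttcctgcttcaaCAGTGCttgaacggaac
Ftl1, 5′ UTR, chr7:45459779-45459807, minus strand: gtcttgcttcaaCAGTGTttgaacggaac
Slc40a1, 5′ UTR, chr1:45925465-45925493, minus strand: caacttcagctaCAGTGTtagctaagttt
Tfrc, 3′ UTR, chr16:32631219-32631247, plus strand: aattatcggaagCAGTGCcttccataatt
Tfrc, 3′ UTR, chr16:32631598-32631626, plus strand: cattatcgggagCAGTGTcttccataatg
Tfrc, 3′ UTR, chr16:32631663-32631691, plus strand: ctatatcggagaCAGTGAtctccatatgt
Tfrc, 3′ UTR, chr16:32631710-32631738, plus strand: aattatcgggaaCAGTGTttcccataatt
Slc11a2, 3′ UTR, chr15:100395153-100395181, minus strand: agccatcagagcCAGTGTgtttctatggt

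On GRCm38 the ferritin genes are Fth1 (ENSMUSG00000024661) at chr19:9980598-9985098 on the plus strand and Ftl1 (ENSMUSG00000050708) at chr7:45457944-45459884 on the minus strand, and the exporter Slc40a1 (ENSMUSG00000025993) is at chr1:45908068-45926523, minus. The importers are Tfrc (ENSMUSG00000022797) at chr16:32608920-32632794, plus, Slc11a1 (ENSMUSG00000026177) at chr1:74375195-74386062, plus, and Slc11a2 (ENSMUSG00000023030) at chr15:100387898-100425072, minus. Aco1 (ENSMUSG00000028405) is at chr4:40143081-40198338 and Ireb2 (ENSMUSG00000032293) at chr9:54863789-54912530, both plus.

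The Fth1 and Ftl1 elements share the same 5-base arms on both sides of the loop, and the Slc11a2 element has 1 mismatch in its arms. The Fth1 element lay in 4 of 5 coding transcripts with a 5′ UTR, the Ftl1 element in 1 of 2, the Slc40a1 element in 1 of 4, the Tfrc elements in 1 of 2 transcripts with a 3′ UTR, and the Slc11a2 element in 1 of 3. Transcripts with and without the element are thus annotated for each of these genes, and gene counts sum over them. For comparison, 0.985% of 20916 genes with a 5′ UTR and 4.14% of 21045 genes with a 3′ UTR held a match. No match was found in Slc11a1, Aco1 or Ireb2, which says only that these letters are not in their annotated untranslated regions.

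The 2 ferritin chains were among the most abundant messages of both cell types. Per kilobase of merged exons (1340 bases for Ftl1 and 3469 for Fth1), Ftl1 ranked 11th and Fth1 17th of 22524 genes in macrophages, and 30th and 90th of 23110 genes in monocytes. Between 0.682% and 1.15% of a macrophage library's counts came from Fth1, and 0.382% to 0.566% from Ftl1. In monocyte libraries the shares were 0.0972% to 0.191% and 0.0847% to 0.148%. The other members lay far lower per kilobase: Slc11a1 ranked 431st in monocytes and 1378th in macrophages, Aco1 3166th and 1287th, Ireb2 3888th and 4827th, Slc11a2 7102nd and 5430th, Tfrc 9037th and 8544th, and Slc40a1 18107th and 9481st. Near-identical ferritin copies are annotated elsewhere in the genome, and reads that fit several copies may not be counted; the most covered copy, Fth-ps2, had at most 27 counts in a library and Ftl1-ps1 at most 17.

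Macrophages of the injured lung held far more ferritin and ferroportin message than naive lung monocytes, more Aco1 and Slc11a2, slightly more Tfrc, and less Slc11a1 and Ireb2. Averaged over the 4 matched groups (young saline, young ISRIB, old saline, old ISRIB), all 8 members passed an adjusted p under 0.05 in edgeR's quasi-likelihood test with Benjamini-Hochberg adjustment over all genes, 6 of them higher in macrophages and 2 lower. So did 79.2% of the 13587 genes tested, a share so high that the sizes, rather than the count, describe these genes. The members' median log2 fold change was 1.09 and that of all genes -0.00344. In bulk libraries fewer cells of a type and less RNA per cell cannot be told apart.

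**Figure D1:**
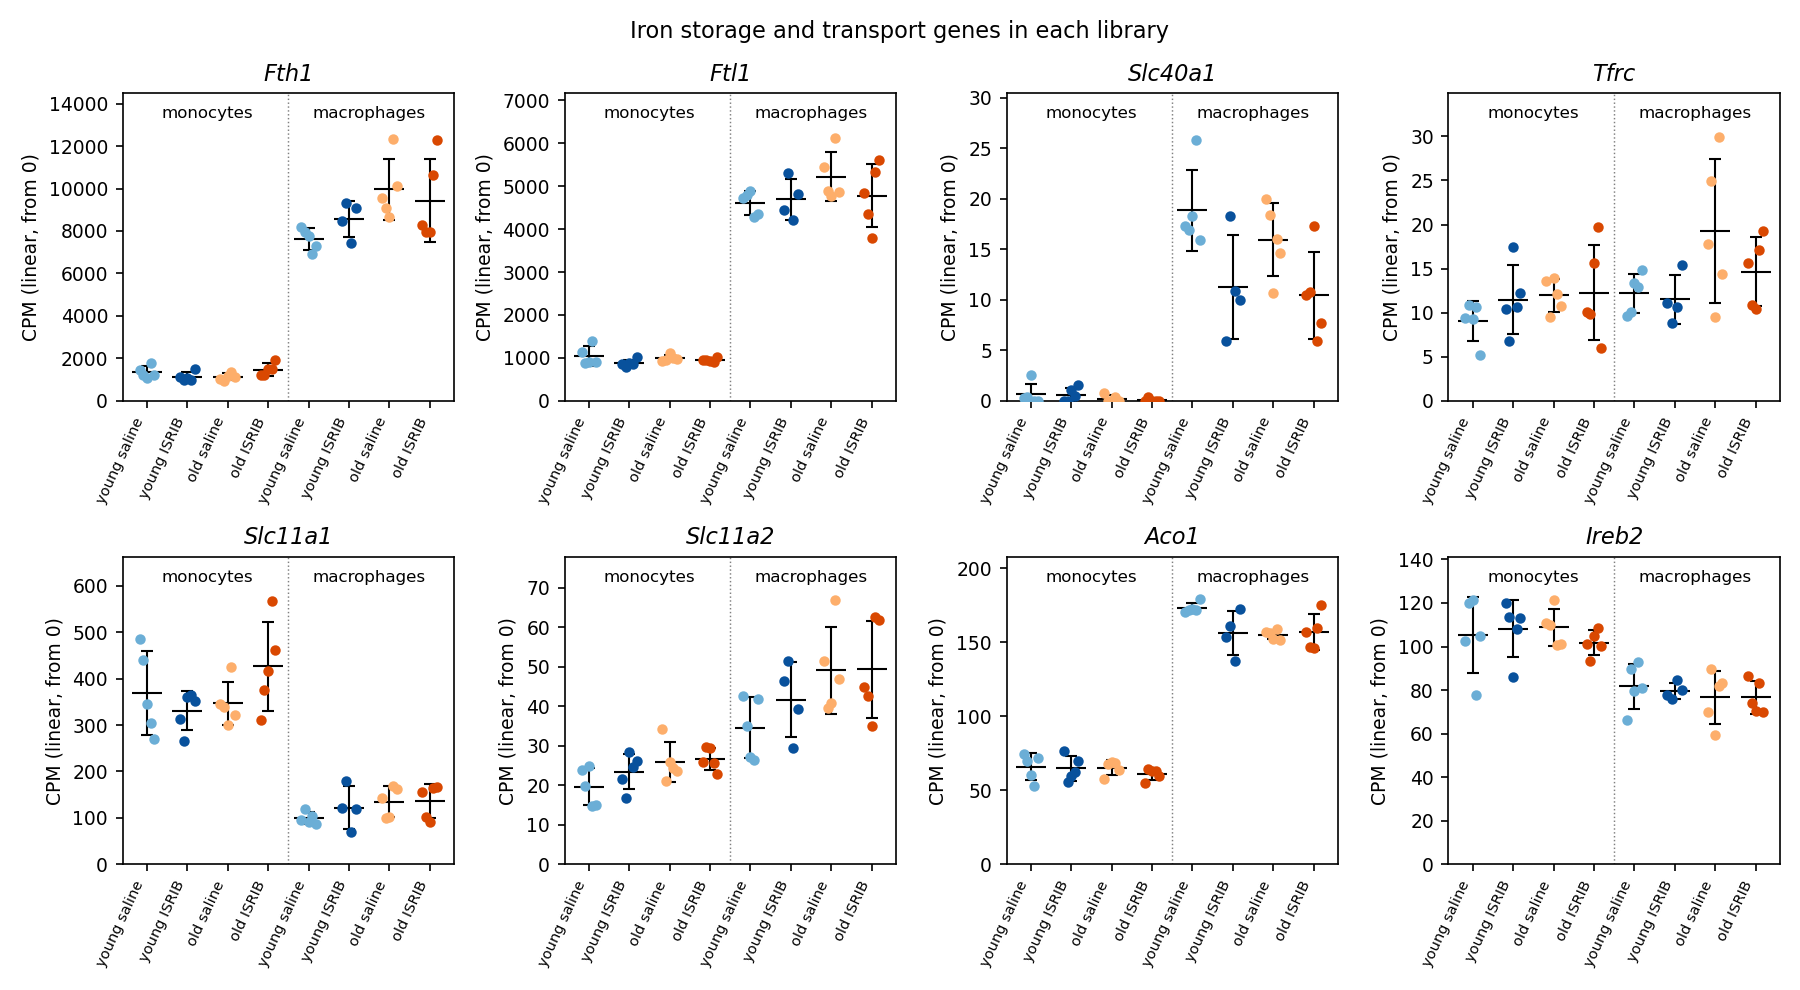
TMM-scaled CPM of the 8 genes in each of the 39 libraries (dots, linear axes from 0), with the mean and SD of each group (black) and monocytes left of the dotted line. Fth1, Ftl1, Slc40a1 and Aco1 separate the cell types without overlap; Tfrc overlaps between them.

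Fth1 stood at 1351 ± 281 CPM in young saline, 1133 ± 206 in young ISRIB, 1129 ± 164 in old saline and 1462 ± 292 in old ISRIB monocytes (n = 5 each). In macrophages it stood at 7615 ± 518 CPM in young saline (n = 5), 8571 ± 839 in young ISRIB (n = 4), 9958 ± 1446 in old saline (n = 5) and 9425 ± 1959 in old ISRIB mice (n = 5). The lowest macrophage library, at 6896 CPM, lay far above the highest monocyte library, at 1927 CPM. The fold was 7.02 on the mean of the 4 groups (log2 2.81 ± 0.076 SE, edgeR adjusted p = 5.06e-30), with 5.64 in young and 8.82 in old saline mice.

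Ftl1, the chain that stabilises the iron core, was at 1042 ± 223, 876 ± 80.2, 991 ± 68.5 and 948 ± 40.9 CPM in young saline, young ISRIB, old saline and old ISRIB monocytes. The same order of groups gave 4613 ± 279, 4694 ± 472, 5221 ± 571 and 4783 ± 731 CPM in macrophages. Again no macrophage library, the lowest at 3801 CPM, reached down to the highest monocyte library at 1394 CPM. The fold was 5.01 (log2 2.33 ± 0.057 SE, edgeR adjusted p = 1.97e-31).

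The heavy chain, which carries the ferroxidase that oxidises iron on entry, thus differed by more than the light chain. The ratio of Fth1 to Ftl1 counts, a description that depends on the lengths of both genes, averaged 1.30 ± 0.0760 in young saline, 1.29 ± 0.115 in young ISRIB, 1.14 ± 0.149 in old saline and 1.54 ± 0.269 in old ISRIB monocytes. Macrophages had 1.65 ± 0.0557, 1.83 ± 0.0816, 1.91 ± 0.138 and 1.97 ± 0.191 in the same order. Among macrophages the young saline libraries (1.59 to 1.73) lay below all old saline libraries (1.76 to 2.08); this ratio was looked at after the levels were known and was not tested.

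Slc40a1 was close to absent from monocytes. Of the 20 monocyte libraries 11 had no count, the highest had 22, and all together had 71 counts in 173588098, a pooled level of 0.409 CPM (95% exact Poisson interval 0.319 to 0.516, counting error only). The 19 macrophage libraries had 2280 counts, a pooled level of 13.8 CPM (13.3 to 14.4), and none fell below 44 counts. By group, macrophages stood at 18.9 ± 4.0 CPM in young saline, 11.3 ± 5.17 in young ISRIB, 15.9 ± 3.60 in old saline and 10.4 ± 4.32 in old ISRIB mice. The fitted log2 fold change over monocytes was 5.36 ± 0.36 SE (edgeR adjusted p = 9.5e-17); its size rests on few monocyte counts, which ranged from 28 in young saline to 5 in old ISRIB monocytes.

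Among the importers, Slc11a2 was higher in macrophages and Slc11a1 lower. Slc11a2 was at 19.6 ± 4.71, 23.4 ± 4.53, 25.8 ± 5.07 and 26.7 ± 2.81 CPM in young saline, young ISRIB, old saline and old ISRIB monocytes. Macrophages had 34.6 ± 7.79, 41.6 ± 9.50, 49.1 ± 11 and 49.4 ± 12.3 CPM, a fold of 1.82 (log2 0.86 ± 0.095 SE, edgeR adjusted p = 1.2e-10). In each saline comparison the libraries of the 2 cell types did not overlap.

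Slc11a1, by contrast, was the member with the highest level in monocytes outside ferritin. It stood at 369 ± 90.7, 331 ± 42.3, 346 ± 47.2 and 426 ± 96.3 CPM in the 4 monocyte groups, in the order young saline, young ISRIB, old saline, old ISRIB. The macrophage groups had 99.0 ± 12.5, 122 ± 45.4, 135 ± 32.6 and 135 ± 36.4 CPM. The highest macrophage library, 180 CPM in a young ISRIB mouse, stayed below the lowest monocyte library, 265 CPM. Macrophages had 0.333 times the monocyte level (log2 -1.59 ± 0.10 SE, edgeR adjusted p = 1.8e-17).

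Tfrc was low in both cell types, and on the mean of the 4 groups its difference was the smallest of the 8; in each saline comparison that of Ireb2 was smaller. Monocyte groups had 9.04 ± 2.29, 11.5 ± 3.87, 12.0 ± 1.87 and 12.2 ± 5.39 CPM, and macrophage groups 12.2 ± 2.22, 11.5 ± 2.78, 19.3 ± 8.16 and 14.7 ± 3.88 CPM, again from young saline to old ISRIB. Libraries overlapped in both saline comparisons. The log2 fold change was 0.34 ± 0.14 SE on the mean of the 4 groups (edgeR adjusted p = 0.0247) and 0.68 ± 0.27 in old saline mice (adjusted p = 0.0305), and 0.44 ± 0.28 in young saline mice, where it did not pass (adjusted p = 0.173). Without old saline macrophage replicate 4, the library with the highest Tfrc, the mean over the 4 groups no longer passed (log2 0.29, adjusted p = 0.0517). In old saline mice it also failed without old saline macrophage replicate 2 (adjusted p = 0.0911) or 4 (0.15), or without old saline monocyte replicate 2 (0.0746) or 5 (0.0587).

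The 2 iron regulatory proteins went opposite ways. Aco1, a cytosolic aconitase that becomes IRP1 when it loses its iron-sulfur cluster, was at 65.9 ± 9.07, 64.9 ± 8.36, 65.3 ± 4.81 and 60.9 ± 3.79 CPM in monocytes and 173 ± 3.43, 156 ± 15, 155 ± 3.09 and 157 ± 12.0 CPM in macrophages. Its fold was 2.49 (log2 1.32 ± 0.046 SE, edgeR adjusted p = 2.42e-26), with no overlap in either saline comparison. Ireb2, whose protein is destroyed when iron is plentiful, was at 105 ± 17.6, 108 ± 13.1, 109 ± 8.41 and 102 ± 5.69 CPM in monocytes and 81.8 ± 10.4, 79.6 ± 3.75, 76.8 ± 12.2 and 76.6 ± 7.58 CPM in macrophages. Macrophages had 0.742 times the monocyte level of Ireb2 (log2 -0.43 ± 0.057 SE, edgeR adjusted p = 9.95e-09), and the libraries overlapped in young but not in old saline mice. Per kilobase the order of the 2 genes was close in monocytes, 14.3 CPM per kilobase for Aco1 and 11.2 for Ireb2, and wide in macrophages, 35.7 and 8.30.

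**Figure D2:**
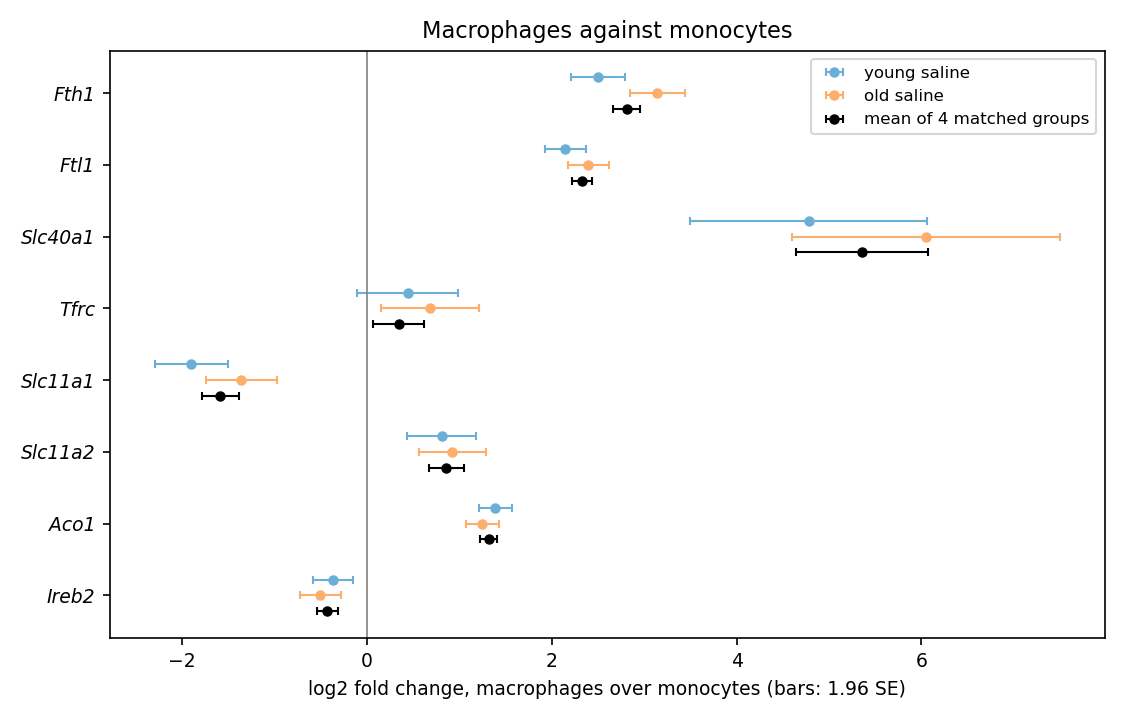
Log2 fold change of each gene in macrophages over monocytes (horizontal axis) in young saline mice, old saline mice and the mean of the 4 matched groups, with bars of 1.96 SE. Fth1, Ftl1, Slc40a1, Slc11a2 and Aco1 lie right of 0 and Slc11a1 and Ireb2 left of 0 in all 3 comparisons; the Tfrc bar crosses 0 in young saline mice.

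Split by age in saline mice, 7 of 8 members passed in young mice (5 higher in macrophages, 2 lower), where 60.0% of all genes passed, and 8 of 8 in old mice (6 higher, 2 lower), where 57.0% did. Whether the age effect differed between the cell types was tested directly: none of the 8 members passed (edgeR; 1 with an unadjusted p under 0.05, Slc40a1, and 0 by DESeq2), beside 0.743% of all genes. Of the 13587 genes tested, 1557 had an unadjusted p under 0.05 there, and DESeq2 called 218. For Fth1 the age effect in macrophages minus that in monocytes was a log2 difference of 0.21 ± 0.14 SE (edgeR adjusted p = 0.612, interval -0.07 to 0.49). For Slc40a1 it was 1.77 ± 0.78 SE (adjusted p = 0.357), with 11 and 5 counts in all of the old saline and old ISRIB monocytes and 22 of the 28 counts of young saline monocytes in replicate 3. Leaving out single libraries moved it from 0.88 (without young saline monocyte replicate 3) to 3.29 (without old ISRIB monocyte replicate 2), with adjusted p-values of 0.166 to 0.743.

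Within macrophages, no member passed the test for age, but Fth1 came near it. In saline mice every old library (8665, 9086, 9565, 10118 and 12356 CPM) lay above every young library (6896, 7292, 7765, 7941 and 8182 CPM). The share of all genes whose libraries separate the ages in this way was not counted. The log2 fold change of Fth1 was 0.39 ± 0.11 SE (1.31-fold, edgeR adjusted p = 0.0891). DESeq2 gave an adjusted p of 0.0322 and edgeR on the 2 groups alone 0.0443. Of 7 refits under other settings, by edgeR or DESeq2, 3 passed, with adjusted p-values of 0.0036 to 0.283. None of the 10 edgeR refits without a single library passed (adjusted p = 0.0585 to 0.235). In ISRIB mice old libraries (7928, 7969, 8288, 10659 and 12283 CPM) overlapped young ones (7420, 8492, 9072 and 9299 CPM), with a log2 fold change of 0.14 ± 0.12 SE (adjusted p = 0.707). The mean over both treatments was 0.26 ± 0.081 SE (edgeR adjusted p = 0.0606). Leaving out old saline replicate 2, old ISRIB replicate 2 or old ISRIB replicate 3 gave 0.0469, 0.0432 and 0.0397. The other 16 of 19 edgeR refits without a single library did not pass, with adjusted p-values up to 0.130. Under other settings, 2 of 6 refits by edgeR or DESeq2 passed (adjusted p = 0.0058 to 0.204).

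None of the 8 passed in any of the 3 age comparisons of macrophages, in which 1.16% (saline), 0.937% (ISRIB) and 4.86% (mean of both) of 12171 genes passed. At an unadjusted p under 0.05 by edgeR there were 5, 0 and 3 of the 8 members, beside 12.69%, 12.2% and 17.76% of all genes. By DESeq2, Fth1 alone passed in saline and in the mean, and no member in ISRIB mice. Over all genes DESeq2 called 261 in saline mice, 215 in ISRIB mice and 799 in the mean. The members' median log2 fold change was 0.28 in saline mice, 0.08 in ISRIB mice and 0.18 on the mean of both, against 0.0041, 0.00547 and 0.00448 for all genes.

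The metal transporters and the transferrin receptor leaned the same way as Fth1 in saline macrophages without passing. Slc11a2 was at 26.3, 27, 35, 41.9 and 42.5 CPM in young and 39.4, 40.8, 46.8, 51.4 and 66.8 CPM in old libraries, a log2 difference of 0.50 ± 0.18 SE (edgeR adjusted p = 0.207). Slc11a1 was at 86.4 to 119 CPM in young and 99.7 to 169 CPM in old libraries (0.45 ± 0.20 SE, adjusted p = 0.34). Both overlapped between ages. Among saline macrophages the 3 highest Tfrc values were in old libraries, at 17.8, 24.95 and 29.9 CPM beside 9.54 and 14.3 CPM, while young saline libraries had 9.65 to 14.8 CPM. That difference was 0.65 ± 0.25 SE on the log2 scale (edgeR adjusted p = 0.24). Averaged over treatments the Tfrc difference was 0.50 ± 0.18 SE (edgeR adjusted p = 0.123, and 0.0475 without old saline replicate 3, the library with the lowest value). The other 18 of 19 edgeR refits of this Tfrc mean without a single library did not pass, with adjusted p-values up to 0.232.

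Aco1 was the reverse. Its 5 old saline libraries (152, 152, 156, 157 and 159 CPM) all lay below the 5 young ones (170, 171, 172, 173 and 179 CPM). Here too the share of all genes that separate the ages was not counted. The Aco1 difference was small, log2 -0.16 ± 0.072 SE (0.896-fold, edgeR adjusted p = 0.347), and in ISRIB mice it was 0.0095 ± 0.076 (adjusted p = 0.981). The intervals for Ftl1 (-0.01 to 0.36), Ireb2 (-0.31 to 0.12) and Slc40a1 (-0.76 to 0.27) in saline mice all held 0.

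Marker lists of macrophages and of other cells moved with age in these libraries. The macrophage identity list (7 of 7 detected) separated the ages in saline mice as Fth1 did, with 6138 to 6455 CPM in young and 6587 to 7645 CPM in old libraries. T and NK cell genes (1.31 to 3.39 CPM in young saline, 4.86 to 11.4 CPM in old saline) and dendritic cell genes (9.89 to 13.7 and 16.6 to 27.9 CPM) did not overlap either, at far lower levels. Genes of B and plasma cells summed to 6.30 to 30.1 CPM in young saline and 22.5 to 427 CPM in old saline libraries, and to 7.58 to 23.6 CPM in young ISRIB and 152 to 590 CPM in old ISRIB libraries; all 7 genes of that list were detected in each group. Old saline replicate 4, the library with the highest Fth1 and Tfrc, had the lowest B and plasma cell sum of the old libraries, 22.5 CPM. The mature alveolar macrophage list (7 of 7 detected) summed to 4676 to 7722 CPM in young saline and 4927 to 8904 CPM in old saline libraries, and to 6941 to 13880 CPM in old ISRIB libraries. Cycling genes, with which Tfrc often rises in dividing cells, summed to 374 to 467 CPM in young saline and 233 to 603 CPM in old saline libraries, with 603 CPM in replicate 2 and 362 CPM in replicate 4. The 6 classical monocyte genes summed to 313 to 543 CPM in young saline and 126 to 259 CPM in old saline libraries, without overlap. The part of these lists in the age differences was not tested.

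**Figure D3:**
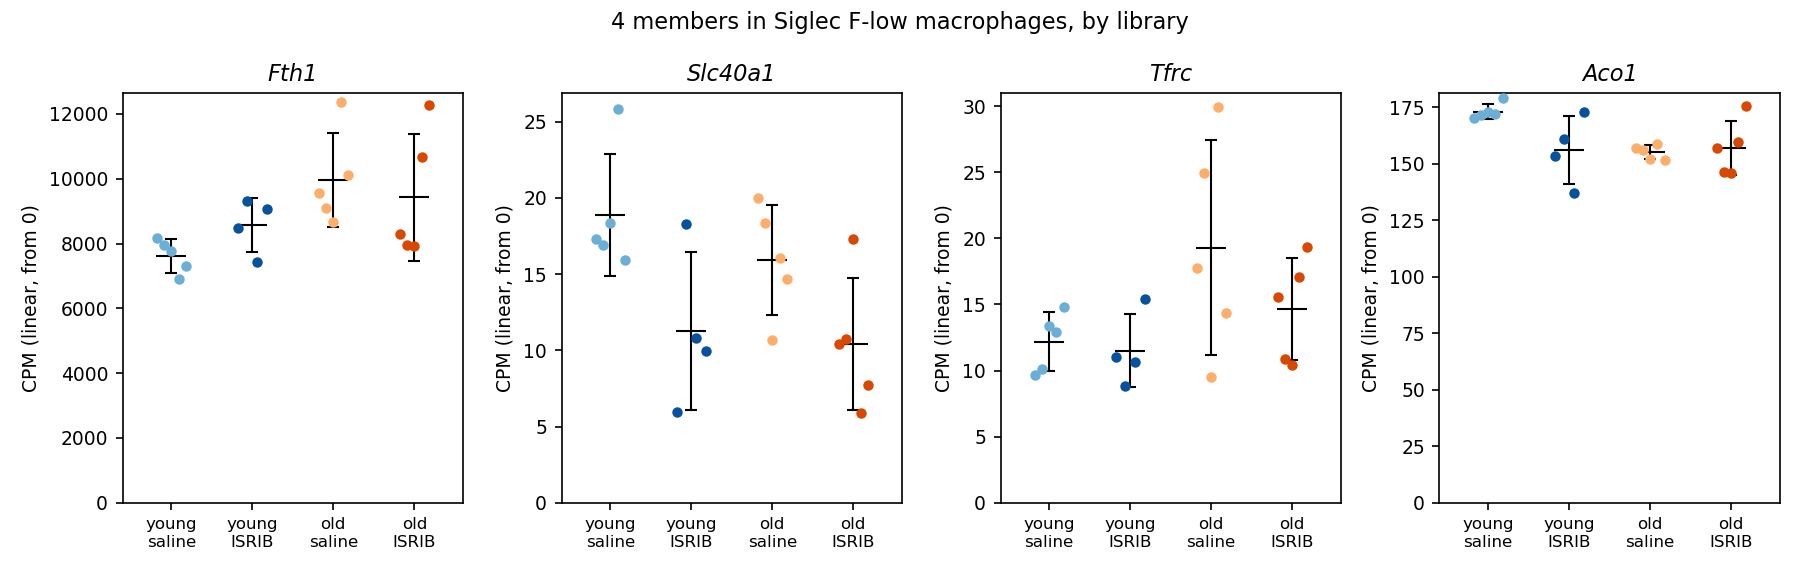
TMM-scaled CPM of Fth1, Slc40a1, Tfrc and Aco1 in the 19 macrophage libraries (dots) by age and treatment, with group mean and SD (black), on linear axes from 0. Old saline libraries sit above young saline ones for Fth1 and below them for Aco1; ISRIB groups have the lower Slc40a1 means at both ages.

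Ferroportin was the member with the largest ISRIB difference in macrophages, and it did not pass the test. Young saline libraries had 15.9, 16.9, 17.3, 18.3 and 25.8 CPM of Slc40a1 and young ISRIB libraries 5.92, 9.96, 10.8 and 18.3 CPM. Old saline libraries had 10.7, 14.7, 16, 18.4 and 20 CPM and old ISRIB libraries 5.91, 7.73, 10.4, 10.8 and 17.3 CPM. One ISRIB library in young mice and 2 in old mice thus fell inside the saline range. The log2 fold change was -0.74 ± 0.29 SE in young (edgeR adjusted p = 0.28) and -0.61 ± 0.27 in old mice (adjusted p = 0.507), and the difference of the 2 effects was 0.14 ± 0.39 (adjusted p = 0.995). Averaged over ages it was -0.67 ± 0.20 SE, or 0.627-fold (adjusted p = 0.0821). DESeq2 gave an adjusted p of 0.0348 for the mean, and edgeR without old saline replicate 3, the lowest saline library, 0.0409. Of 6 refits of the mean under other settings, by edgeR or DESeq2, 2 passed, with adjusted p-values of 0.0059 to 0.496. The other 18 of 19 edgeR refits without a single library did not pass, with adjusted p-values up to 0.199. The Slc40a1 values rest on 44 to 253 counts a library.

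Some marker lists also leaned one way with ISRIB, though saline and ISRIB ranges overlapped at each age for every list given here. Macrophage identity genes summed to 6138 to 6455 CPM in young saline and 6370 to 8223 CPM in young ISRIB libraries, and to 6587 to 7645 CPM in old saline and 7340 to 8451 CPM in old ISRIB libraries. The mature alveolar macrophage list had medians of 5328 CPM (4676 to 7722) in young saline and 6224 CPM (5211 to 8159) in young ISRIB libraries. In old mice its medians were 7794 CPM (4927 to 8904) with saline and 12000 CPM (6941 to 13880) with ISRIB. Cycling genes summed to 374 to 467 CPM in young saline and to 178, 183, 286 and 469 CPM in young ISRIB libraries, of which replicate 1, at 178 CPM, had the lowest Slc40a1 and replicate 2, at 183 CPM, the highest. In old mice the cycling sums were 233 to 603 CPM with saline and 202 to 294 CPM with ISRIB. The part of these lists in the Slc40a1 difference was not tested.

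No member passed for ISRIB in macrophages in old mice, in young mice, in the mean of both ages or in the difference between the ages, where 0%, 0%, 0.830% and 0% of 12171 genes passed. With edgeR at an unadjusted p under 0.05, the members numbered 1, 1, 1 and 0, Slc40a1 each time; DESeq2 called Slc40a1 in the mean and no member in the other 3. Over all genes 1112 (9.136%), 1513 (12.43%), 2019 (16.59%) and 621 (5.102%) had an unadjusted p under 0.05 by edgeR, in the same order of comparisons. DESeq2 called 48, 119, 417 and 0 genes. For the ferritin chains the mean ISRIB effect was small: 0.05 on the log2 scale for Fth1 (interval -0.11 to 0.20) and -0.05 for Ftl1 (-0.18 to 0.08). Aco1 (interval -0.17 to 0.04) and Ireb2 (-0.18 to 0.13) were as narrow. Slc11a1 (-0.13 to 0.44), Slc11a2 (-0.12 to 0.40) and Tfrc (-0.60 to 0.12) were wider, so a moderate change in them could not have been seen.

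In monocytes 7 members could be tested, since Slc40a1 was below the filter on low counts, and none passed in any comparison. For ISRIB against saline, 0% of 12170 genes passed in old mice, 0% in young mice, 0% in the mean and 0% in the difference between ages. Here 918, 809, 911 and 865 genes had an unadjusted p under 0.05, and DESeq2 called 12, 0, 1 and 0 genes. For age, 0.0247% passed in saline mice, 0% in ISRIB mice and 0.123% in the mean. There 1072, 803 and 1003 genes had an unadjusted p under 0.05, and DESeq2 called 41, 14 and 73. In these 7 comparisons 1, 1, 0, 1, 1, 2 and 1 members had an unadjusted p under 0.05 by edgeR, and DESeq2 called no member.

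The ISRIB difference of Fth1 in monocytes had opposite signs at the 2 ages. Old saline monocytes had 927, 1043, 1130, 1173 and 1369 CPM and old ISRIB monocytes 1204, 1223, 1473, 1484 and 1927 CPM, a log2 difference of 0.36 ± 0.16 SE (edgeR adjusted p = 0.609). Young saline monocytes had 1073, 1218, 1233, 1430 and 1798 CPM and young ISRIB monocytes 997, 999, 1082, 1094 and 1493 CPM, a difference of -0.25 ± 0.16 SE (adjusted p = 0.758). Both pairs of groups overlapped. The old-minus-young difference of the ISRIB effects was 0.61 ± 0.22 SE, which did not pass either (adjusted p = 0.615). Between old and young ISRIB monocytes Fth1 differed by a log2 of 0.354 to 0.37 in the refits under other settings, and passed in none. Slc11a2 in saline mice, at 14.7 to 24.7 CPM in young and 20.9 to 34.3 CPM in old monocytes, differed by 0.41 ± 0.17 SE (edgeR adjusted p = 0.456). Ftl1 under ISRIB in young monocytes differed by -0.25 ± 0.12 SE (adjusted p = 0.745), and Slc11a1 between old and young ISRIB monocytes by 0.36 ± 0.16 SE (adjusted p = 0.729). The 6 classical monocyte genes summed to 6258 to 10270 CPM in old saline and 5151 to 6599 CPM in old ISRIB monocytes. In young mice they summed to 5185 to 10530 CPM with saline and 4627 to 9892 CPM with ISRIB. Sums of 6 nonclassical monocyte genes were 2247 to 5148 CPM in old saline and 4284 to 6150 CPM in old ISRIB monocytes. Young mice had 2451 to 6438 and 3189 to 6931 CPM. The part of these lists in the monocyte differences was not tested.

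**Figure D4:**
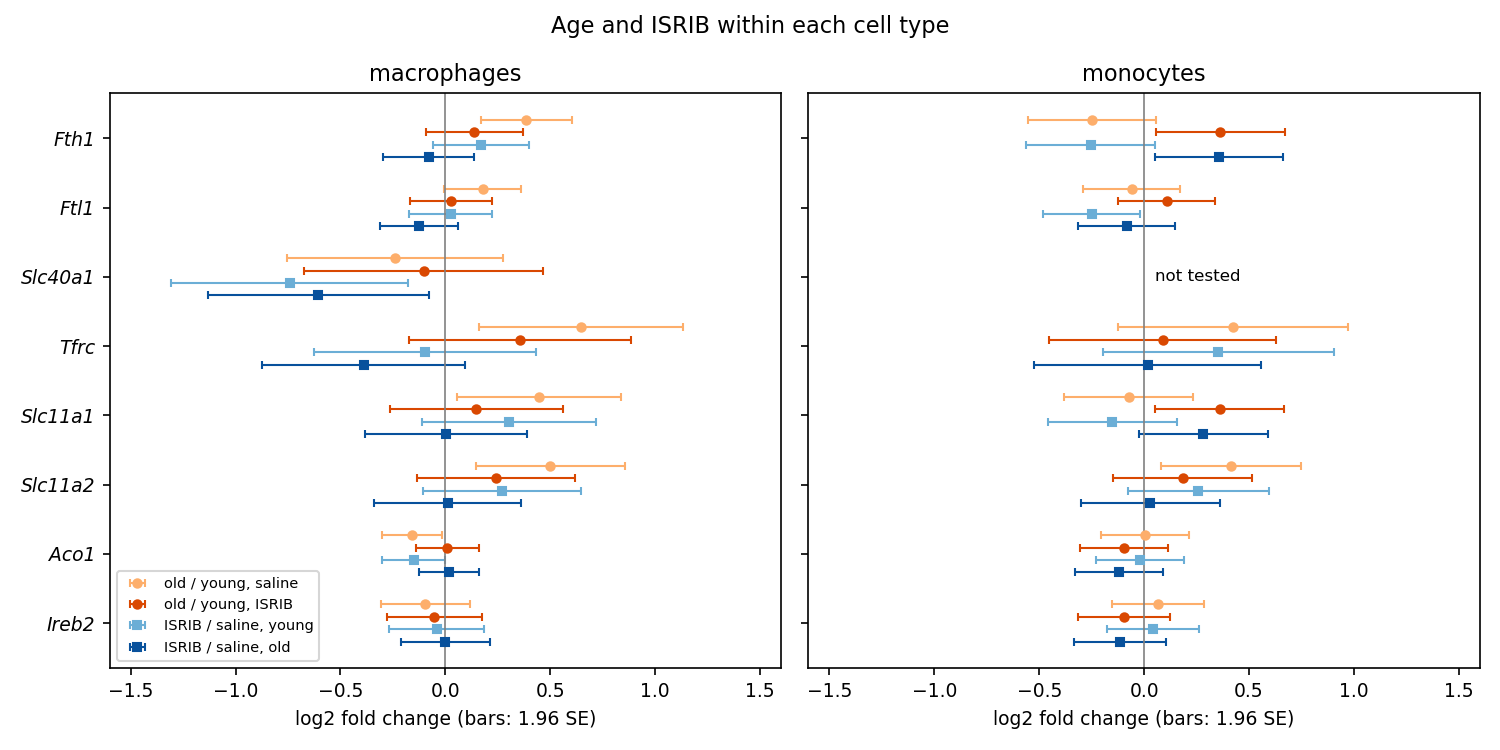
Log2 fold changes of the 8 genes for age (circles, old over young) and ISRIB (squares, ISRIB over saline) in macrophages (left) and monocytes (right), with bars of 1.96 SE. No point passed the adjusted test; in macrophages the saline age bars of Fth1, Tfrc, Slc11a1, Slc11a2 and Aco1 and both Slc40a1 ISRIB bars lie off 0, and Slc40a1 was not tested in monocytes.

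The ISRIB effect did not differ measurably between cell types for any member (0 of 8 by edgeR, 0 at an unadjusted p under 0.05, 0 by DESeq2), beside 0% of 13587 genes, of which 1138 had an unadjusted p under 0.05 and DESeq2 called 36. For Fth1 the macrophage minus monocyte difference was -0.01 on the log2 scale (interval -0.29 to 0.27), and for Ftl1 0.11 (-0.11 to 0.32).

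Across the 19 macrophage libraries both ferritin chains and both metal transporters (Slc11a1, Slc11a2) correlated with one another. The exporter Slc40a1 passed with none of them, at r of -0.34 with Fth1, -0.0917 with Ftl1, -0.218 with Slc11a1 and -0.434 with Slc11a2. Fth1 correlated with Slc11a2 (Pearson r = 0.859, Spearman rho = 0.84), with Ftl1 (0.835 and 0.821) and with Slc11a1 (0.774 and 0.798), and Slc11a1 with Slc11a2 (0.783 and 0.779), on log2(CPM + 1). In a permutation test with 100000 resamples, two-sided, the p-values adjusted over the 49 pairs of both cell types were 0.00049, 0.00049, 0.000612 and 0.000612 for r and 0.00122, 0.00122, 0.00163 and 0.00171 for rho. Raw p-values for r were 1e-05, 2e-05, 5e-05 and 5e-05, the first being the smallest these permutations can give. Without the 2 libraries farthest from the median of the first gene named, r was 0.797, 0.722, 0.743 and 0.754, and after subtracting each group's mean it was 0.795, 0.871, 0.719 and 0.718. The libraries share age and treatment groups and 1 scaling factor each.

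In all, 8 of 28 pairs in macrophages (28.6%) and 2 of 21 in monocytes (9.52%) passed, all 10 positive. Among all pairs of the tested genes, 1.19% in macrophages and 1.89% in monocytes reached the lowest r that passed, 0.603 and 0.611; these shares are descriptions, since genes are not independent. The other pairs in macrophages were Ftl1 with Slc11a1 (r = 0.758), Ftl1 with Slc11a2 (0.721), Fth1 with Tfrc (0.622) and Ftl1 with Tfrc (0.603). The Tfrc pairs fell to 0.357 and 0.4 without 2 libraries, a step that also narrows the range of the first gene. How far they rest on those libraries was not tested. Their rho did not pass (adjusted p = 0.154 and 0.0529 by permutation). In monocytes the pairs were Fth1 with Ftl1 (r = 0.622, rho = 0.586, adjusted p for r = 0.0238 by permutation) and Tfrc with Slc11a2 (0.611, 0.547 and 0.024), while their rho had adjusted p-values of 0.0529 and 0.0742. Without 2 libraries the r of these monocyte pairs was 0.471 and 0.517. Slc40a1, Aco1 and Ireb2 were in no pair that passed. After subtracting each group's mean, however, Aco1 in macrophages had r of 0.695 with Fth1, 0.682 with Ftl1, 0.636 with Slc11a1 and 0.587 with Slc11a2. Without that step these values were 0.0415, 0.301, 0.164 and 0.0205. After it, Aco1 had r of 0.547 with Tfrc, -0.186 with Slc40a1 and -0.0288 with Ireb2. The values after subtraction were not tested.

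The genes whose log-CPM pattern over libraries of a cell type was most like each member's, by Pearson r, are given as a description. In the 19 macrophage libraries Fth1 was followed by Lyz2 (r = 0.946), the lysozyme of macrophages, whose own level was 32120 to 61200 CPM, then by Rilpl2 (0.93) and Itgb2 (0.92). Ftl1 was followed by Rasa4 (0.918), Lpcat2 (0.882) and Psap (0.878), Slc11a1 by Rtn4 (0.902), Ly9 (0.898) and Creg1 (0.875), and Slc11a2 by Hvcn1 (0.898), Ly9 (0.897) and Vat1 (0.897). The likeness was weaker for Slc40a1 (Rbfox2, 0.835), Tfrc (Ikbke, 0.809), Aco1 (Znrf3, 0.796) and Ireb2 (Zhx3, 0.749). In the 20 monocyte libraries Fth1 was followed by Pdcd6 (0.905), Snx20 (0.894) and Atf4 (0.891), the last of these being the main transcription factor made during the integrated stress response, and Ftl1 by Bag1 (0.934), Myl6 (0.928) and Cyba (0.927). The closest genes there were Tgm2 for Slc11a1 (0.875), Mks1 for Slc11a2 (0.85), Gapt for Aco1 (0.828), Slc39a9 for Ireb2 (0.799) and Rpa2 for Tfrc (0.749).

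The wider set of iron genes, 67 others in 6 lists by role, gave the setting of these differences. Of the 52 tested between cell types, 28 were higher and 16 lower in macrophages on the mean of the 4 groups, with a median log2 fold change of 0.39, beside the 79.2% of all genes that passed. Genes of heme handling were 8 higher and 4 lower of 13, uptake and reduction 6 and 1 of 8, mitochondrial iron and iron-sulfur clusters 9 and 5 of 17, iron sensing and degradation 2 and 2 of 6, storage and its release 2 and 3 of 5, and export and its hormone 1 and 1 of 3.

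The largest difference was in Flvcr2, a heme and choline transporter, at 75.0 to 166 CPM in macrophages and 0 to 1.29 CPM in monocytes (log2 8.49 ± 0.23 SE, edgeR adjusted p = 6.54e-30, with 10 of 20 monocyte libraries at 0). Alas1, the rate-limiting enzyme of heme synthesis, was at 352 to 676 CPM against 28.6 to 73.1 CPM (3.26 ± 0.097). Slc22a17, a receptor for the siderophore-binding protein lipocalin-2, differed by 2.90 ± 0.29, and Lcn2, which encodes lipocalin-2 itself, by -3.49 ± 0.50, from 0.456 to 26.9 CPM in monocytes to at most 2.85 CPM in macrophages.

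Ncoa4, the cargo receptor that delivers ferritin to lysosomes, was higher in macrophages beside the ferritin chains, at 76.5 to 148 CPM against 4.70 to 22.8 CPM in monocytes (log2 2.75 ± 0.099 SE, edgeR adjusted p = 7.91e-26). Hmox1, which frees iron from heme, was at 176 to 309 CPM against 75.1 to 168 CPM (0.92 ± 0.081, adjusted p = 3.01e-13). Fbxl5, the iron-sensing ubiquitin ligase subunit that marks IRP2 for destruction, did not pass on the mean of the 4 groups (-0.07 ± 0.12, adjusted p = 0.579). Hamp, the gene of the hormone hepcidin that closes ferroportin, was at most 1.77 CPM in any library and was not tested.

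**Figure D5:**
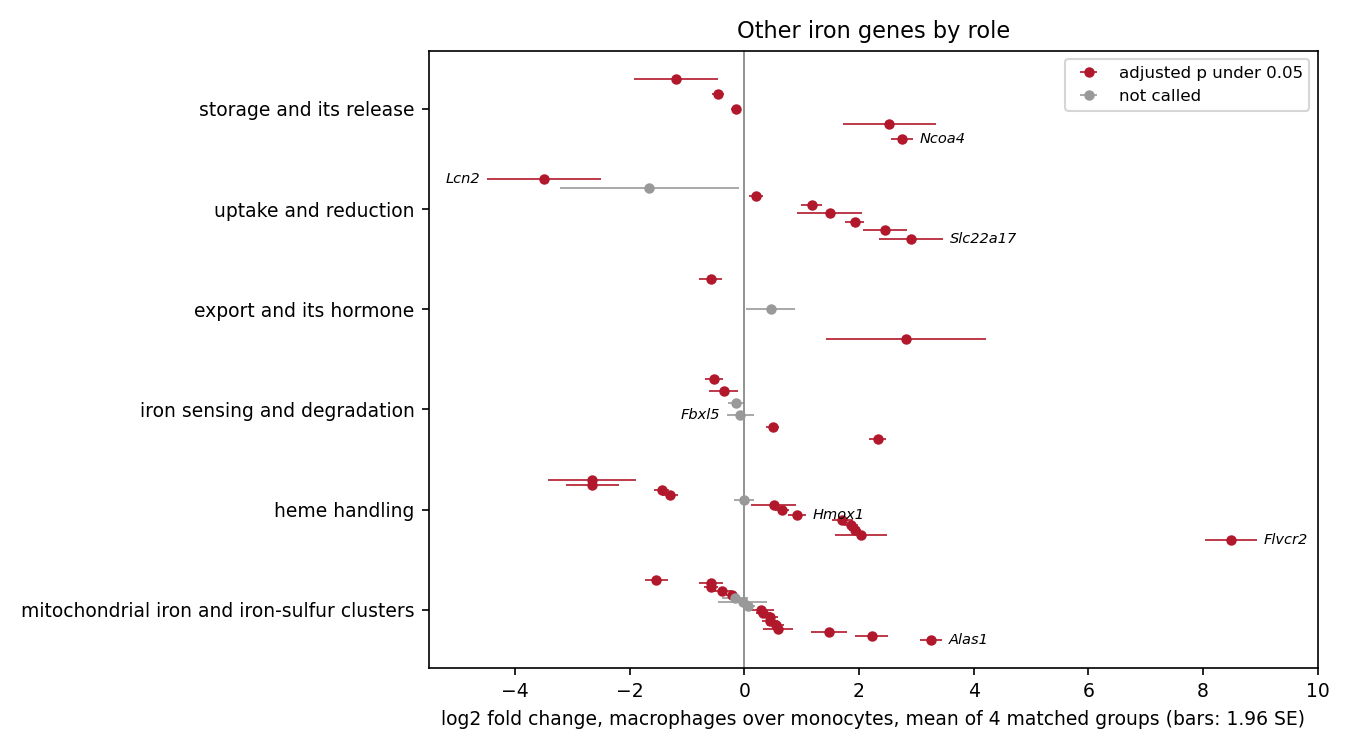
Log2 fold change in macrophages over monocytes, mean of the 4 matched groups, of the 52 other iron genes tested, by role (rows), with bars of 1.96 SE and genes past an adjusted p of 0.05 in red. 28 lie to the right (higher in macrophages) and 16 to the left among those that passed; Flvcr2 stands farthest right.

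Of 49 of these genes tested for age within macrophages, 1 rose and 2 fell on the mean of both treatments. That share was close to the 4.86% of all genes that passed. Steap3, the endosomal ferric reductase that works with the transferrin receptor, fell from 61.4 ± 12.9 and 55.9 ± 4.71 CPM in young saline and young ISRIB to 47.0 ± 10.51 and 33.6 ± 6.57 CPM in old saline and old ISRIB macrophages (log2 -0.56 ± 0.11 SE, edgeR adjusted p = 0.00396). It was the 1 gene that also passed in ISRIB mice alone (-0.73 ± 0.17, adjusted p = 0.0274), with no gene passing in saline mice alone. Fbxl5 rose from 169 ± 19.4 and 224 ± 12.5 to 229 ± 43.4 and 274 ± 59.8 CPM (0.36 ± 0.097, adjusted p = 0.0268), and Nedd4l, a ubiquitin ligase that can act on DMT1, fell from 22.1 ± 3.84 and 27.6 ± 3.97 to 19.1 ± 2.18 and 17.7 ± 5.20 CPM (-0.43 ± 0.13, adjusted p = 0.0455). The Fbxl5 and Nedd4l calls were lost without 6 and 13 single libraries of 19, with adjusted p-values up to 0.0618 and 0.0971, and Fbxl5 also in the fit over all 39 libraries (0.332). Ncoa4 (0.24 ± 0.075, adjusted p = 0.0598) and Hmox1 (-0.01 ± 0.089, adjusted p = 0.983) did not pass for age. No gene of the wider set passed for ISRIB in either cell type, or for age in monocytes. In macrophages Fbxl5 came nearest, at 0.33 ± 0.096 SE for ISRIB on the mean of both ages (edgeR adjusted p = 0.0805).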

How the data were processed

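RNA-seq measured polyA messages from 3 ng of total RNA per library. The deposited table holds whole-number counts per Ensembl gene; per the submitters' processing notes the authors used bcl2fastq 2.19.1, FastQC, Trimmomatic 0.36, STAR 2.6.0, HTSeq 0.11.2 and mm10. Strand setting and annotation release: not given in the sources used here. Coordinates came from GENCODE M21 (GRCm38). Symbols came from a separate list of gene names or, where that had none, from GENCODE M21, and 42546 of 43430 gene IDs had one.

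Counts were tested with edgeR 4.0.16 (R 4.3.3): TMM, filterByExpr by group (minimum count 10), quasi-likelihood fits of group means within the 19 macrophage libraries (12171 genes), the 20 monocyte libraries (12170) or all 39 (13587), Benjamini-Hochberg over all genes tested, threshold 0.05. SE is the absolute log2 fold change divided by the square root of F, and intervals are 1.96 SE to each side. The 19 comparisons were 7 within each cell type and 5 between them. DESeq2 1.42.0, other scalings, no filter, other sets of libraries, a replicate block and leaving out each library were alternatives. The code was tested on simulated data.

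The members and lists were chosen with earlier results of these data known. All 8 members are named; other iron genes are named as the up to 4 with the largest absolute log2 fold change among those past the threshold in a comparison, plus Hmox1, Fbxl5, Ncoa4 and Hamp. The genes most like a member are the 3 with the highest Pearson r. Of the marker lists, those whose sums bear on a member are printed. No 2 libraries of a group agreed within sampling noise (76 pairs, chi-square per degree of freedom 7.26 to 57.7). Deviations of same-numbered replicates from their group means had a median correlation of 0.00384 in macrophages (-0.148 to 0.165) and -0.0142 in monocytes (-0.191 to 0.242). This check does not exclude a weak pairing, and the replicate number entered only an alternative fit. Protein sequences were not used here.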

Additional observations from a re-analysis of the deposited data

Results flagged for a closer look

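In 64 sets of 4 or 5 libraries (8 genes in 8 groups), 6 single values stood apart from the rest of their group by Dixon's test at the 95% level, which chance alone passes in about 1 of 20 groups. Fth1 was high in young ISRIB monocyte replicate 5, at 1493 CPM. Slc40a1 was high in young saline monocyte replicate 3 (2.51 CPM) and old ISRIB monocyte replicate 2 (0.399 CPM), groups in which most libraries had few or no counts, and in young saline macrophage replicate 4 (25.8 CPM). Tfrc was low in young saline monocyte replicate 5, at 5.16 CPM. Aco1 was high in young saline macrophage replicate 5, at 179 CPM, in a group that otherwise spanned 170 to 173 CPM.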

How the results depend on the processing

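The number of members passing the threshold was within 1.5 times the number reported in 110 of 117 refits under other settings and in 327 of 332 refits without a single library, and no value for a single gene reversed. The exceptions were all in macrophages. For ISRIB on the mean of both ages (0 members), edgeR with no low-count filter and DESeq2 each called 1, Slc40a1 (adjusted p = 0.0059 and 0.0348), and leaving out single libraries gave 0 to 1. For age in saline mice (0 members), the unfiltered fit called 3 (Fth1, Slc11a1 and Slc11a2), DESeq2 1 and edgeR on the 2 groups alone 1 (both Fth1); for age on the mean of both treatments (0 members) the unfiltered fit called the same 3, DESeq2 1 (Fth1), and single libraries left out gave 0 to 1 (Fth1 or Tfrc). The cause was not tested. The count of other iron genes changed by age, 3, became 9 without the filter, 5 by DESeq2 and 1 to 4 without single libraries. Over all genes, the ISRIB mean called 101 genes in the fit reported, 640 unfiltered, 417 by DESeq2 and 17 in the fit of all 39 libraries, and age in saline mice 141, 468, 261 and 60. Among same-numbered libraries, 2 of 27 macrophage pairs and 4 of 30 monocyte pairs had deviations correlated above 0.1. The replicate block left 0 members called in each comparison within a cell type. It called 343 genes in place of 101 for the macrophage ISRIB mean, and gave an edgeR adjusted p of 0.0673 for Nedd4l. CPM by library total moved 63 of 64 group means by less than 1 SD. Low counts limit Slc40a1 in monocytes.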
